A study of Homo sapiens with 30 samples.

Results

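The hypoxia response and glycolysis genes described here are 39 named genes out of 30373 in a table of gene expression from human cancer cell lines treated with ML-792. They were chosen by name, with earlier results of these data known, and all 39 were found in the table. They comprise 6 genes of the hypoxia-inducible factor (HIF) and its oxygen sensing, 10 HIF target effectors outside glycolysis, 5 genes of glucose uptake and the first steps, and 5 phosphofructokinases and their regulators. The remaining members are 8 enzymes from aldolase to enolase, 3 genes of lactate and pyruvate fate and 2 genes of glycogen metabolism.

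ML-792 (labelled ML00754792) inhibits the SUMO-activating enzyme, the first enzyme in the attachment of the small protein modifier SUMO to its targets. Polyadenylated RNA was sequenced in 30 libraries forming 10 groups of 3, which the labels describe as biological triplicates. HCT116 and COLO205 (colorectal cancer lines) and MDAMB231 (a breast cancer line) each received 500 nM ML-792 or 0.01% DMSO, the vehicle, for 16 h. HCT116 also received 500 nM ML-792 or 0.01% DMSO for 3.5 h, either without heat shock or with one: drug or vehicle for 2 h, then 43 °C for 0.5 h, then recovery at 37 °C for 1 h. The protocols describe no low-oxygen treatment for any group. Each line is an established culture, so replicates measure variation within that line and not between tumours.

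HIF is a transcription factor made of an oxygen-regulated alpha subunit, HIF1A or EPAS1, and the stable partner ARNT. With oxygen present, prolyl hydroxylases such as EGLN1 and EGLN3 mark the alpha subunit for recognition by VHL and destruction, a control that acts on the protein and is not seen in RNA. When the alpha subunit persists, HIF binds short DNA cores in promoters and enhancers and raises genes of glucose uptake, glycolysis, acid export, blood vessel growth and mitochondrial turnover. Many cancer lines express glycolytic genes strongly even with oxygen.

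Promoter sequences are shown for the 5 members with the largest called falls with ML-792 in MDAMB231. All 5 hold letters of the HIF binding core near a listed start site, as did most other members. The cores searched were ACGTG and GCGTG on both strands, so CACGT and CACGC also count, and overlapping matches of both strands are merged in the capitals. The sequences are RefSeq promoter windows of build GRCh38.p14, given 5′ to 3′ on the gene's strand, 250 bases up to the start. They lie at chr9:35673678-35673927 on the plus strand for CA9 and chr10:131981924-131982173 on the minus strand for BNIP3. The other windows are on the plus strand, at chr2:74834920-74835169 for HK2, chr12:6914330-6914579 for ENO2 and chr2:172555840-172556089 for PDK1. HK2 and PDK1 have 2 listed windows each, and the window with the most cores is shown. Capitals mark the cores.
CA9: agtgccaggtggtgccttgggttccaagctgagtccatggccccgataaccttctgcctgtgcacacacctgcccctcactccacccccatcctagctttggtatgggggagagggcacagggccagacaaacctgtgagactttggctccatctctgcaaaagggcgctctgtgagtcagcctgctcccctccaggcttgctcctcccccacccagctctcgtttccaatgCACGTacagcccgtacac
BNIP3: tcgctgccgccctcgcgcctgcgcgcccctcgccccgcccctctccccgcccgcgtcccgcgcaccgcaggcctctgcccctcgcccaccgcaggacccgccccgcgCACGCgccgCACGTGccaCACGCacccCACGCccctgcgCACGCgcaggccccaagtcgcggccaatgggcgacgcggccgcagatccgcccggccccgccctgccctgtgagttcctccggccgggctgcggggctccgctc
HK2: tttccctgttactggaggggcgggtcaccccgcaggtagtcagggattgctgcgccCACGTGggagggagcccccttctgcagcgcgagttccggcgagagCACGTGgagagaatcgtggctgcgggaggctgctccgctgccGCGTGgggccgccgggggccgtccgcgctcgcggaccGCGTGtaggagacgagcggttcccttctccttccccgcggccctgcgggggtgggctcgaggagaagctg
ENO2: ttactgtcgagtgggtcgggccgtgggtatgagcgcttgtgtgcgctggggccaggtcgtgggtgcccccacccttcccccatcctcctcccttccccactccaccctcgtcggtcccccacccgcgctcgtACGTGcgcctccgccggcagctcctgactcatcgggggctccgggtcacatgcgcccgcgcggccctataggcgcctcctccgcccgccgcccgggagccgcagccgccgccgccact
PDK1: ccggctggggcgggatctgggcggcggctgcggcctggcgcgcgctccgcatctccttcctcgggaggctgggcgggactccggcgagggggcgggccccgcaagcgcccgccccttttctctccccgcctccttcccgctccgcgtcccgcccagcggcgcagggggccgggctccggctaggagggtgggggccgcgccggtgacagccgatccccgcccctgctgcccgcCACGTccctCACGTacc

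In these windows the CA9 core starts 18 bases before the listed start and the ENO2 core 118 bases before it. BNIP3 and HK2 hold 6 matches each, counting both strands, and PDK1 holds 2. Among the 34 members with a promoter in the RefSeq table, 20 (58.8%) had ACGTG in at least 1 of their 300-base windows, against 24.9% of all 27305 genes in the table. GCGTG was in windows of 22 members (64.7%) and 40.6% of all genes. Either core was found for 31 members (91.2%) and 52.4% of all genes. The 34 members had 64 windows and the 27305 genes 35116, so members had more windows per gene in which a core could be found. By single windows, ACGTG was in 40.6% for the members and 21.4% for all genes, and GCGTG in 43.8% and 36.5%. The share of single windows with either core was 68.8% for the members and 48.4% for all genes. All genes here means every gene with a listed promoter, whether expressed in these lines or not. Of the 23 members lower with ML-792 in MDAMB231, 21 had a promoter, and 15 of them (71.4%) held ACGTG. Of the 16 other members 13 had a promoter, and 5 (38.5%) held ACGTG, while GCGTG was in 13 of the 21 (61.9%) and 9 of the 13 (69.2%). Either core was found for 19 of the 21 (90.5%) and 12 of the 13 (92.3%). These counts describe letters in a window and do not measure binding. VHL, VEGFA, SLC2A3, NDRG1 and BNIP3L were not matched.

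Values are FPKM, read fragments counted per length of transcript and per size of library. Read counts were not used here, so depth is known only as a ratio to the first HCT116 DMSO library of 16 h: the 16 h libraries lay between 0.809 and 1.046, unshocked 3.5 h libraries between 1.449 and 2.211, and heat-shocked ones between 1.121 and 1.676. Libraries had 11535 to 12323 genes at 1 FPKM or above, and no replicates held identical values. Library identifiers of heat-shocked and other 3.5 h libraries run in different ranges in the labels, as do those of 16 h, and what these ranges stand for is not stated. Of the line markers examined, VIM was at 885 FPKM and AXL at 181 FPKM in DMSO-treated MDAMB231, with the luminal marker ESR1 at 0.00434 FPKM. Other markers of the same lists ran the other way in MDAMB231, the mesenchymal CDH2 and SPARC being at 0.176 and 0.191 FPKM and the luminal ERBB2 and GATA3 at 19.9 and 3.08 FPKM. EPCAM was at 113 FPKM in HCT116 and 467 FPKM in COLO205, but VIL1 was near 0 in HCT116 (0.0188 FPKM) and KRT20 was low in both lines (0.587 and 0.209 FPKM). The heat shock gene HSPA1B was at 175 FPKM in DMSO without heat shock and 4181 FPKM with it.

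**Figure D1:**
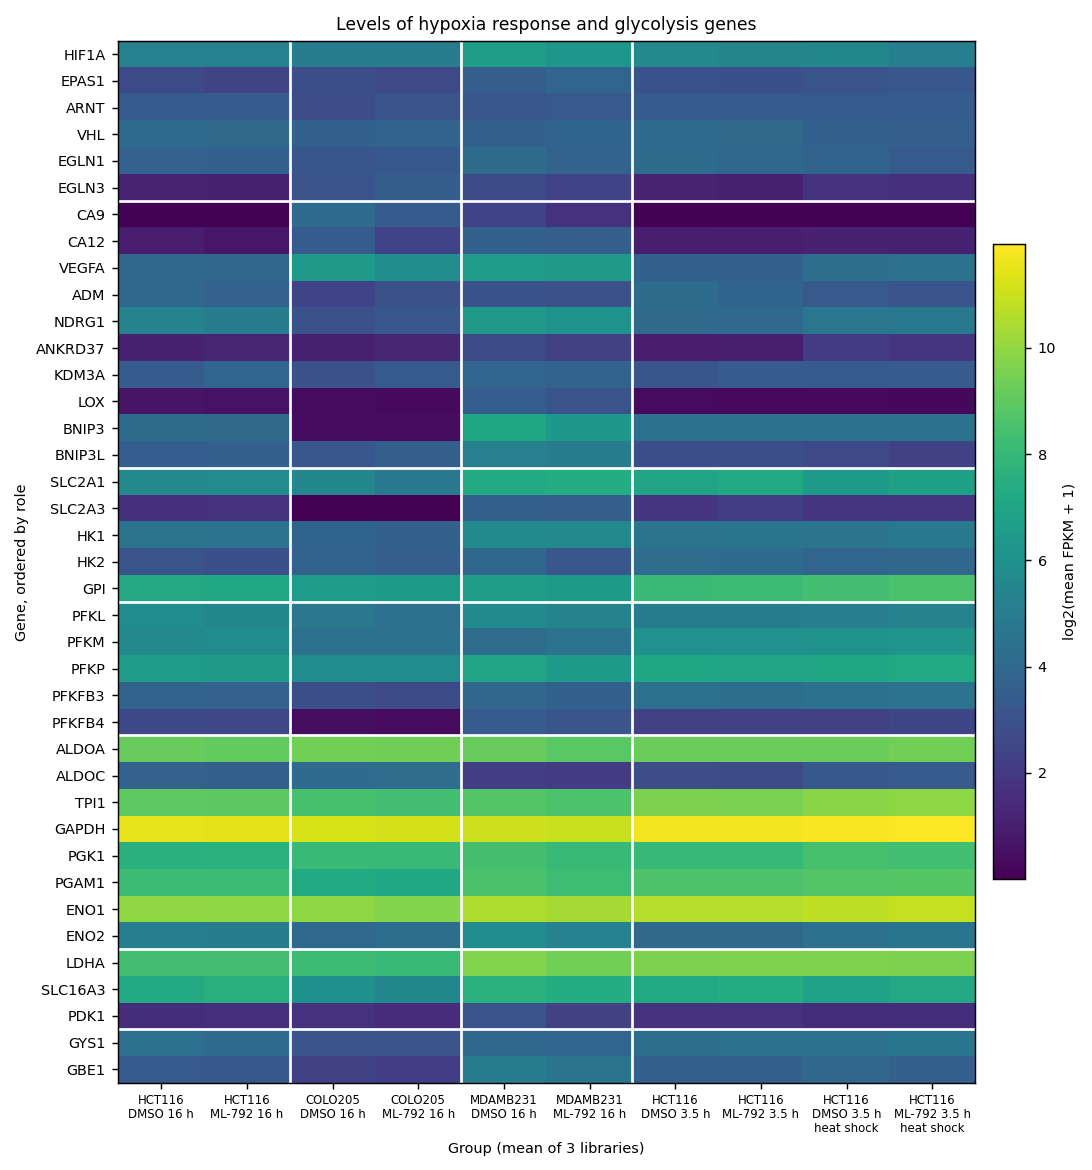
Mean levels of the 39 genes (n = 3 libraries per group) on a log2(FPKM + 1) colour scale, with genes ordered by role and white lines between roles and between lines or experiments. GAPDH and ENO1 are the brightest rows throughout, and CA9, LOX, BNIP3, SLC2A3 and NDRG1 are among the genes that differ by over 3 units between lines.

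Among the vehicle-treated lines, MDAMB231 had the highest levels of most members. Changes are differences of mean log2(FPKM + 1) with their standard error (SE), and a gene is called where limma's p, adjusted by Benjamini and Hochberg's method across the tested genes, is below 0.05. Against HCT116, 28 of 39 members were higher in MDAMB231 and 9 lower, where 38.1% of all 14251 genes tested were higher and 45.5% lower. Against COLO205, 30 were higher and 6 lower, with 41.9% and 44.5% of all genes. COLO205 against HCT116 gave 10 higher and 26 lower, with 39.4% and 45.5% of all genes. The members' medians were 0.85, 0.97 and -0.49 in these comparisons, beside -0.07, -0.02 and -0.06 for all genes. At least 2-fold differences were called for 18, 21 and 15 members, against 27.2%, 34.7% and 29.7% of all genes. Of bulk RNA it cannot be told whether a lower level reflects fewer expressing cells or less RNA per cell.

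HIF1A, the widely expressed alpha subunit, was at 106, 101 and 102 FPKM in the MDAMB231 libraries, 38.7, 36.4 and 37.5 in HCT116 and 33.8, 30.1 and 30.7 in COLO205. MDAMB231 was thus far above both colorectal lines, and COLO205 lay slightly below HCT116 (-0.24 ± 0.06, adjusted p = 0.000873). EPAS1, the second alpha subunit, was also highest in MDAMB231 at 11.3 ± 0.15 FPKM (SD, n = 3), with 6.43 ± 0.54 in COLO205 and 5.34 ± 0.17 in HCT116. HIF1A made up 90.1% ± 0.278 of the summed HIF1A and EPAS1 FPKM in MDAMB231, 87.5% ± 0.426 in HCT116 and 83.1% ± 0.299 in COLO205 (SD, n = 3). ARNT and VHL spanned narrower ranges, from 6.13 to 9.58 and 11.9 to 16.9 FPKM in mean level. EGLN1 ranged from 8.15 to 17.6 FPKM. EGLN3, a hydroxylase that is itself a HIF target, was lowest in HCT116 (1.23 ± 0.091 FPKM) and highest in COLO205 (7.34 ± 0.25).

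Single effectors separated the lines most. BNIP3, a mitophagy receptor, stood at 133, 127 and 132 FPKM in MDAMB231, 17.3, 16.8 and 19.0 in HCT116, and 0.423, 0.355 and 0.137 in COLO205. It was nearly unexpressed in COLO205, and the difference of 6.67 ± 0.07 from MDAMB231 was the largest of the 39 in any comparison of lines (adjusted p = 1.41e-22). CA9, a surface carbonic anhydrase widely used as a hypoxia marker, ran the other way, with 16.8, 16.0 and 18.4 FPKM in COLO205, 4.49, 4.04 and 4.50 in MDAMB231 and at most 0.0869 in HCT116. The difference between COLO205 and HCT116 was 4.09 ± 0.06 (adjusted p = 2.61e-20). These 2 effectors therefore ordered the lines differently.

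Further members with large gaps were the following. The neuronal-type glucose transporter SLC2A3 averaged 12 FPKM in MDAMB231, 2.04 in HCT116 and 0.0223 in COLO205 (3.67 ± 0.06 for MDAMB231 minus COLO205, adjusted p = 5.07e-20). NDRG1, a stress-responsive gene, averaged 83.4, 40.0 and 6.93 FPKM in the same order (3.41 ± 0.08, adjusted p = 1.04e-17). LOX, a matrix cross-linking enzyme, was at 10.9 FPKM in MDAMB231, and at 0.565 and 0.264 in HCT116 and COLO205 (3.23 ± 0.06 against COLO205, adjusted p = 2.71e-19). PFKFB4, which sets the level of a phosphofructokinase activator, was at 9.81, 4.97 and 0.349 FPKM (3.01 ± 0.06, adjusted p = 2.75e-18). The largest falls against COLO205 were ALDOC, the brain-type aldolase (-1.97 ± 0.07, adjusted p = 1.33e-14), and CA9 (-1.76 ± 0.06, adjusted p = 5.19e-15). EGLN3, ALDOA and PFKM followed with -0.38 ± 0.06, -0.26 ± 0.06 and -0.18 ± 0.04.

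Against HCT116, the leading rises in MDAMB231 were LOX (2.92 ± 0.06), BNIP3 (2.82 ± 0.07), CA12, a second surface carbonic anhydrase (2.79 ± 0.07), VEGFA, the vascular growth factor (2.52 ± 0.10), and CA9 (2.33 ± 0.06). The leading falls were ALDOC (-1.51 ± 0.07), PFKM, the muscle-type phosphofructokinase (-1.42 ± 0.04), ADM, the vasodilator peptide adrenomedullin (-0.99 ± 0.13), GPI (-0.55 ± 0.05) and GAPDH and VHL (both -0.42, with SE 0.05 and 0.04). All 11 passed the test, with adjusted p from 1.38e-06 for ADM to 2.12e-18 for LOX. In COLO205 against HCT116 the rises were led by CA9, CA12 (2.53 ± 0.07), VEGFA (2.38 ± 0.10), EGLN3 (1.90 ± 0.06) and HK2 (0.69 ± 0.04). The falls were led by BNIP3 (-3.85 ± 0.07), NDRG1 (-2.37 ± 0.08), PFKFB4 (-2.15 ± 0.06), ADM (-1.63 ± 0.13) and SLC2A3 (-1.57 ± 0.06). VEGFA was thus high in COLO205 and MDAMB231 (85.2 and 94.5 FPKM, a difference of 0.15 ± 0.10 with adjusted p = 0.185) and low in HCT116 (15.6).

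The core enzymes were abundant everywhere. GAPDH averaged 2143 to 2866 FPKM over the 3 vehicle groups of 16 h and ENO1 962 to 1467 FPKM. The members together took 1.98% ± 0.0115 of the summed FPKM of genes outside the mitochondrial genome in MDAMB231, 1.59% ± 0.0404 in HCT116 and 1.35% ± 0.0306 in COLO205 (SD, n = 3). LDHA, which makes lactate from pyruvate, was at 880, 835 and 837 FPKM in MDAMB231, and averaged 330 in HCT116 and 293 in COLO205. PFKP, the platelet-type phosphofructokinase, made up 64.8% of the 3 phosphofructokinase transcripts in MDAMB231, 54.2% in COLO205 and 46.5% in HCT116. GAPDH, ENO1, PGK1, LDHA, PGAM1, TPI1, ALDOA and BNIP3 have near-identical pseudogene copies, and their levels are less certain, since the handling of shared reads is not stated.

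In MDAMB231 the effect of ML-792 at 16 h on these genes was mostly downward. Of 39 members 23 fell (59%) and 2 rose, where 8.48% of all genes fell and 8.38% rose. The members' median change was -0.25, beside 0 for all genes. Hexokinase HK2, carbonic anhydrase CA9, the mitophagy receptor BNIP3 and the pyruvate dehydrogenase kinase PDK1 led the falls, and EPAS1 and PFKM were the members that rose. The other 14 members did not pass the test. No member fell by as much as 2-fold on this scale.

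HK2, the inducible hexokinase that traps glucose in the cell, was at 15.5, 15.4 and 15.7 FPKM with DMSO and 8.18, 8.59 and 8.58 with ML-792. The groups lay far apart, and the change was -0.80 ± 0.04 (adjusted p = 6.88e-10). CA9 went from 4.49, 4.04 and 4.50 FPKM to 2.33, 2.14 and 2.48, which is -0.69 ± 0.06 (adjusted p = 3.81e-07). BNIP3 went from 133, 127 and 132 FPKM to 80.2, 82.5 and 79.7 (-0.69 ± 0.07, adjusted p = 1.93e-06). For both genes every treated library lay below every vehicle library. PDK1, the pyruvate dehydrogenase kinase, was at 7.78, 6.83 and 7.45 FPKM and then at 3.65, 4.35 and 4.53 (-0.69 ± 0.08, adjusted p = 5.18e-06). ENO2, the neuronal-type enolase, was at 54.7, 56.3 and 56.5 FPKM and then at 40.3, 37.9 and 38.2 (-0.52 ± 0.04, adjusted p = 7.74e-08). Neither gene's groups overlapped.

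Both HIF alpha subunits changed in MDAMB231, in opposite directions. HIF1A fell from 106, 101 and 102 FPKM to 70.2, 78.0 and 79.2 (-0.44 ± 0.06, adjusted p = 3.52e-05). EPAS1 rose from 11.2, 11.1 and 11.4 FPKM to 13.3, 14.6 and 14.5 (0.30 ± 0.05, adjusted p = 0.000412). The groups were separate for each gene, and the share of HIF1A in their summed FPKM went from 90.1% ± 0.278 to 84.3% ± 0.239 (SD, n = 3). The hydroxylases EGLN1 and EGLN3 also fell, by 0.38 and 0.28 on the log2 scale (adjusted p = 0.000207 and 0.00341). ARNT (0.11 ± 0.04, adjusted p = 0.0872) and VHL (0.13 ± 0.04, adjusted p = 0.0667) did not pass the test.

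Most glycolytic enzymes fell in MDAMB231. All 5 phosphofructokinase genes were called in MDAMB231: PFKP (-0.45 ± 0.05), PFKL (-0.33 ± 0.08), PFKFB4 (-0.30 ± 0.06) and PFKFB3 (-0.24 ± 0.04) fell, while PFKM rose (0.25 ± 0.04, adjusted p = 0.000135). PFKM went from 18.8, 18.4 and 18.3 FPKM to 22.9, 21.8 and 21.7, with no overlap, and its share of the 3 phosphofructokinase transcripts from 9.56% ± 0.368 to 14.5% ± 0.507 (SD, n = 3). Of the aldolase to enolase enzymes 6 of 8 fell, by 0.18 (TPI1) to 0.52 (ENO2), and ALDOC and GAPDH had values of -0.14 ± 0.07 and -0.13 ± 0.05 that did not pass. PGK1, which makes the first ATP of the pathway, went from 341, 336 and 343 FPKM to 276, 275 and 280 (-0.29 ± 0.03, adjusted p = 8.03e-06). LDHA went from 880, 835 and 837 FPKM to 662, 669 and 679 (-0.34 ± 0.05, adjusted p = 0.000144). The libraries of the 2 treatments were separate for both genes.

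The glucose transporters did not pass the test in MDAMB231. SLC2A1, the widely expressed glucose transporter, was at 153, 156 and 164 FPKM with DMSO and 178, 159 and 160 with ML-792, with overlapping groups (0.07 ± 0.07, adjusted p = 0.569). SLC2A3 (-0.07 ± 0.06) and VEGFA (-0.14 ± 0.10, adjusted p = 0.443) did not pass either. Further falls included GBE1, the glycogen branching enzyme (-0.48 ± 0.06), LOX (-0.45 ± 0.06), ANKRD37, a small hypoxia-induced gene (-0.41 ± 0.11), NDRG1 (-0.32 ± 0.08) and BNIP3L, the relative of BNIP3 (-0.17 ± 0.06). The members' share of summed FPKM went from 1.98% ± 0.0115 to 1.69% ± 0.0346. BNIP3L lost its call under both other scalings of the libraries, and ANKRD37 lost its call without DMSO library 3 or ML-792 library 3.

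**Figure D2:**
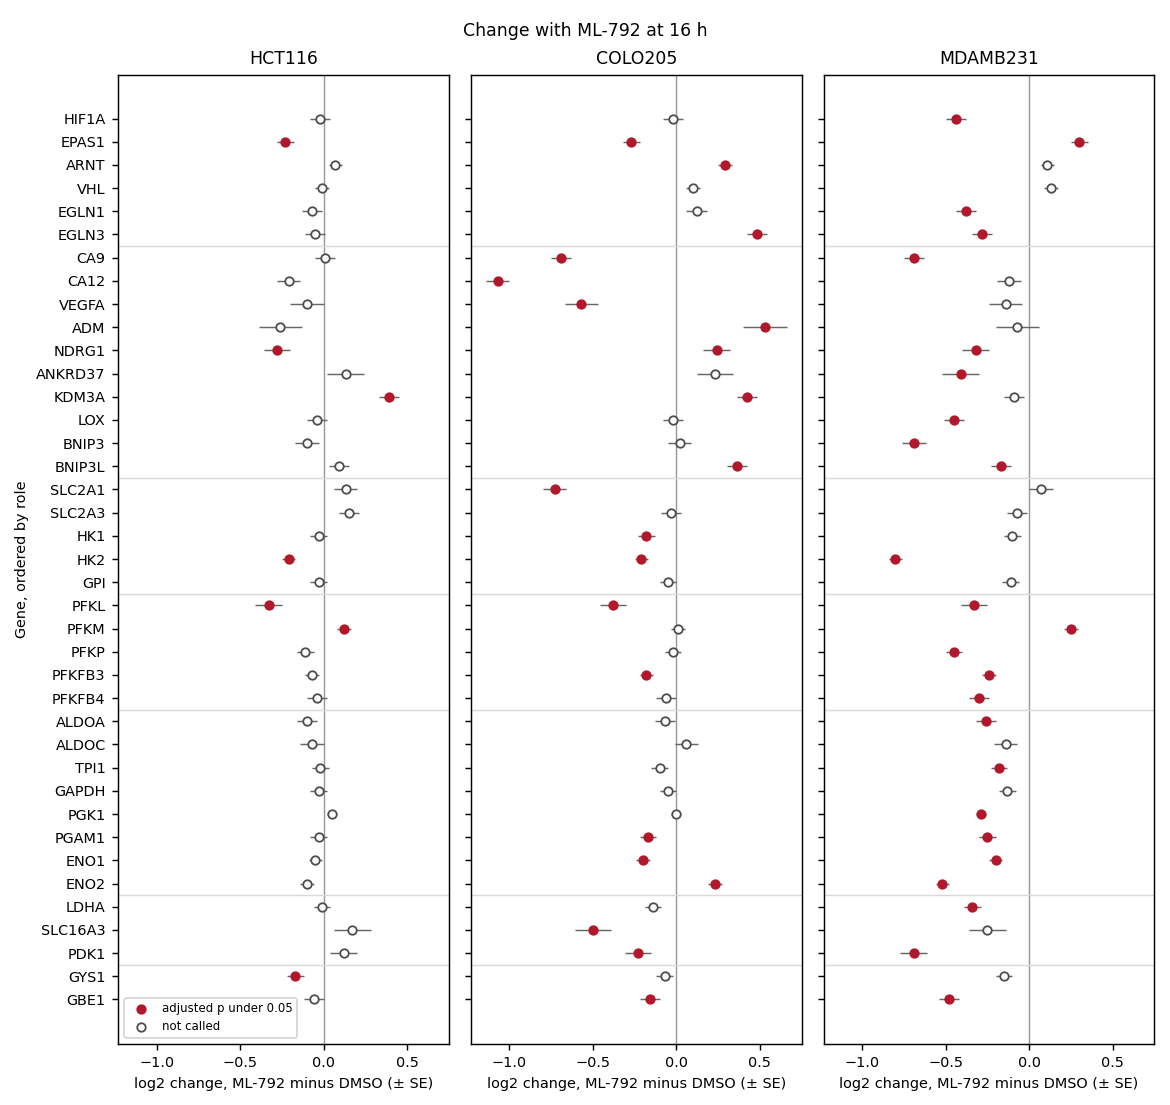
Change of each gene with ML-792 at 16 h (log2, ML-792 minus DMSO, ± SE) in HCT116, COLO205 and MDAMB231, with filled points for adjusted p under 0.05. Most points in the MDAMB231 panel lie left of 0, down to -0.80 for HK2, while HCT116 has 7 filled points and COLO205 has filled points on both sides.

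In COLO205 members changed in both directions with ML-792, but only the share of falls lay above that of all genes. Of 39 members 14 fell (35.9%) and 7 rose (17.9%), where 17.7% of all genes fell and 19.4% rose. The members' median was -0.05 beside 0 for all genes. CA12, SLC2A1, CA9, VEGFA and SLC16A3 led the falls. By role, 3 of 5 genes of glucose uptake and the first steps fell and 0 rose, and of the 10 effectors 3 fell and 4 rose. ADM, EGLN3, KDM3A, BNIP3L and ARNT led the rises. The remaining 18 members did not pass the test.

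CA12 was at 10.3, 9.81 and 10.2 FPKM with DMSO and 3.64, 4.39 and 4.91 with ML-792. This was the one member with a called change of at least 2-fold at 16 h (-1.07 ± 0.07, adjusted p = 2.13e-09). SLC2A1 went from 45.1, 44.0 and 47.0 FPKM to 29.4, 28.2 and 23.8 (-0.73 ± 0.07, adjusted p = 3.51e-07). CA9 went from 16.8, 16.0 and 18.4 FPKM to 9.91, 9.68 and 11 (-0.69 ± 0.06, adjusted p = 1.67e-07). The treatments were separate for all 3 genes. VEGFA was at 83.8, 88.6 and 83.2 FPKM and then at 65.6, 64.1 and 43.7, the third treated library being lowest (-0.57 ± 0.10, adjusted p = 0.000349). SLC16A3, the lactate exporter, was at 63.4, 60.2 and 63.9 FPKM and then at 46.0, 41.9 and 44.2 (-0.50 ± 0.11, adjusted p = 0.00275). Neither pair of groups overlapped.

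ADM was at 5.09, 4.04 and 3.73 FPKM with DMSO and 8.85, 5.89 and 5.39 with ML-792 (0.53 ± 0.13, adjusted p = 0.00379), a rise that was widest in the first treated library. EGLN3 went from 7.31, 7.11 and 7.61 FPKM to 10.9, 10.8 and 10.2 (0.48 ± 0.06, adjusted p = 8.59e-06). KDM3A, a histone demethylase, went from 6.59, 6.78 and 6.78 FPKM to 9.69, 9.28 and 9.11 (0.42 ± 0.06, adjusted p = 1.37e-05). In these 3 genes all treated libraries exceeded all vehicle libraries. BNIP3L (0.36 ± 0.06, adjusted p = 6.59e-05) and ARNT (0.29 ± 0.04, adjusted p = 5.22e-05) rose without overlap too, as did ENO2 (0.23 ± 0.04). NDRG1 (0.24 ± 0.08, adjusted p = 0.0246) was called with overlapping libraries, and it lost the call without ML-792 library 1 or without DMSO library 2 or 3.

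HIF1A did not pass the test in COLO205 (33.8, 30.1 and 30.7 FPKM against 32.8, 31.8 and 28.7; -0.02 ± 0.06, adjusted p = 0.837). EPAS1 fell from 7.03, 6 and 6.26 FPKM to 5.41, 4.97 and 5.11 (-0.27 ± 0.05, adjusted p = 0.000589). Of the glycolytic enzymes PFKL (-0.38 ± 0.08), HK2 (-0.21 ± 0.04, adjusted p = 0.00141), ENO1 (-0.20 ± 0.04), HK1 and PFKFB3 (both -0.18) and PGAM1 (-0.17 ± 0.05) fell, as did PDK1 (-0.23 ± 0.08) and GBE1 (-0.16 ± 0.06). PGK1 had a change of 0 ± 0.03 (adjusted p = 1) and LDHA of -0.14 ± 0.05 (adjusted p = 0.0508). The LDHA value passed the threshold under both other scalings of the libraries. The calls of GBE1 and PDK1 were lost in several leave-one-out fits, and that of PGAM1 without ML-792 library 1.

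HCT116 showed the smallest response at 16 h. Of 39 members 5 fell and 2 rose, where 6.42% of all genes fell and 8.32% rose, and the members' median was -0.04 beside 0. PFKL, the liver-type phosphofructokinase, was at 48.4, 56.7 and 60.3 FPKM with DMSO and 48.1, 41.5 and 41.3 with ML-792 (-0.33 ± 0.08, adjusted p = 0.00755). The groups only just failed to overlap, and the call was lost without DMSO library 3. EPAS1 went from 5.28, 5.21 and 5.53 FPKM to 4.50, 4.31 and 4.41 (-0.23 ± 0.05, adjusted p = 0.00579). HK2 went from 7.81, 7.51 and 7.80 FPKM to 6.75, 6.37 and 6.45 (-0.21 ± 0.04, adjusted p = 0.00374). Both were clearly separate between treatments.

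KDM3A was the largest rise in HCT116, from 10.6, 10.4 and 9.87 FPKM to 12.6, 14.5 and 14.3 (0.39 ± 0.06, adjusted p = 0.000127). Its libraries did not overlap. NDRG1 (-0.28 ± 0.08, adjusted p = 0.0261), GYS1, the glycogen synthase (-0.17 ± 0.05, adjusted p = 0.0371), and PFKM (0.12 ± 0.04, adjusted p = 0.0361) were called with adjusted p close to the threshold. NDRG1 and GYS1 lost the call in 4 and 5 of the 6 leave-one-out fits and PFKM in all 6. HIF1A (-0.02 ± 0.06, adjusted p = 0.876), VEGFA (-0.10 ± 0.10, adjusted p = 0.565), SLC2A1 (0.13 ± 0.07, adjusted p = 0.22), LDHA (-0.01 ± 0.05, adjusted p = 0.935) and PGK1 (0.05 ± 0.03, adjusted p = 0.41) did not pass. CA9 was at most 0.101 FPKM in any HCT116 library of 16 h, too low for a change to be read (adjusted p = 0.956). All 8 aldolase to enolase enzymes lay between -0.10 and 0.05 and none was called. Without ML-792 library 2, ML-792 library 3 or DMSO library 3 the members called numbered 4 instead of 7.

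**Figure D3:**
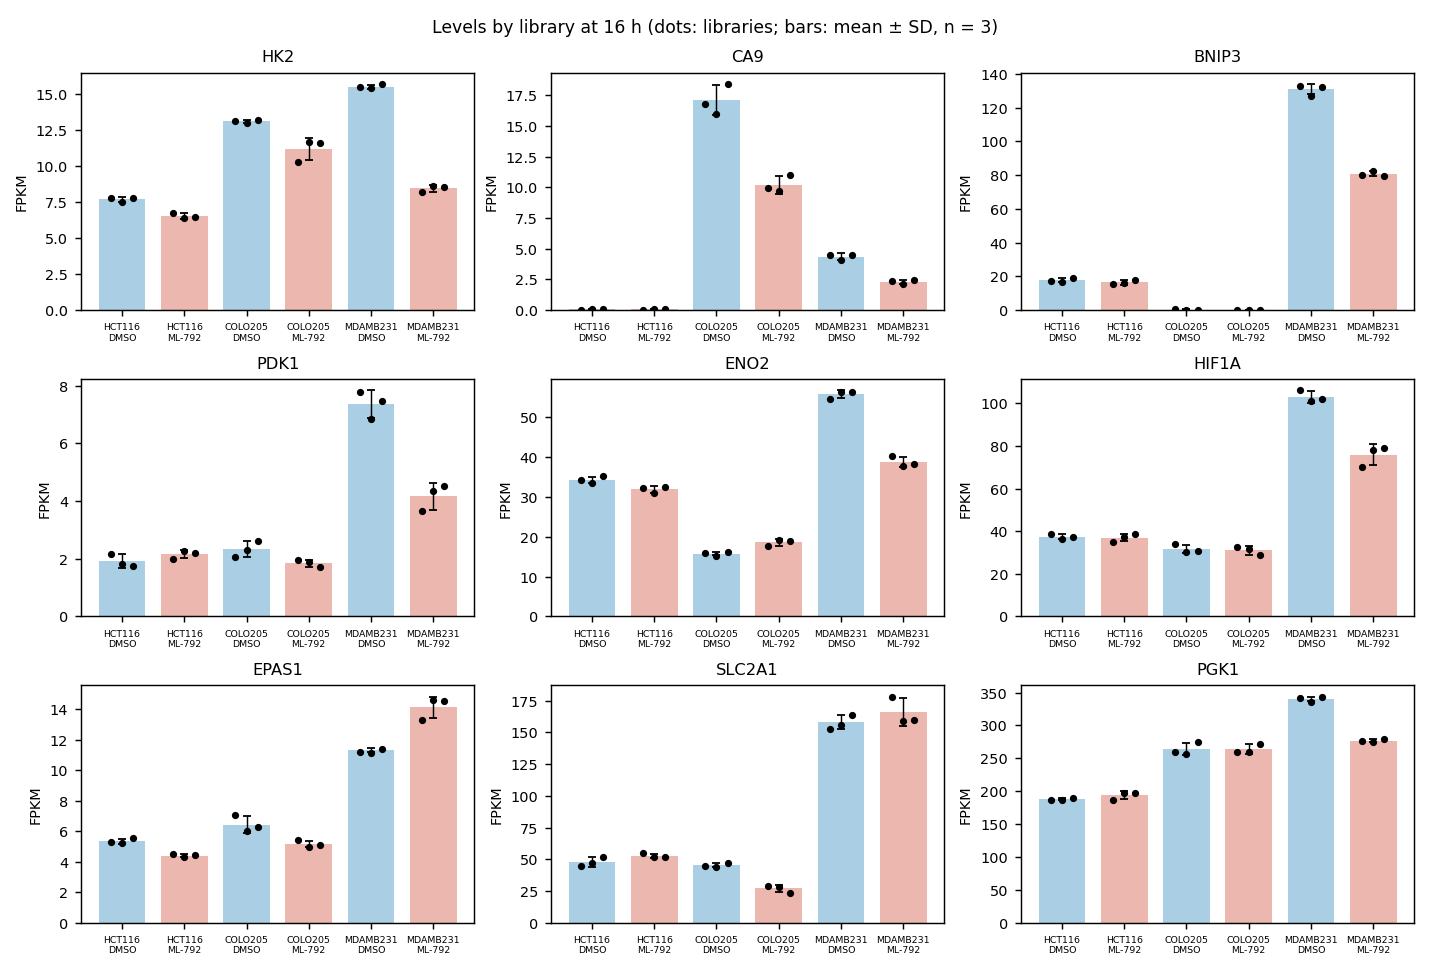
Levels of 9 members in the 18 libraries of 16 h (FPKM; dots are libraries, bars the mean, error bars the SD, n = 3; blue DMSO, red ML-792). HK2 is lower with ML-792 in each line and most so in MDAMB231 (15.5 to 8.45 FPKM), HIF1A changes in MDAMB231 and SLC2A1 in COLO205.

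The effect of ML-792 itself was compared between lines. For MDAMB231 against HCT116 it differed in 16 members, 15 of them lower in MDAMB231, where 10.8% of all genes differed. MDAMB231 against COLO205 gave 23 members, 18 lower and 5 higher, with 26% of all genes. COLO205 against HCT116 gave 12 members, 6 in each direction, with 19.4% of all genes. These comparisons share libraries, so they are not independent of each other. The counts include members under 1 FPKM in one of the lines, whose difference largely restates the change in the other line: CA9 and LOX where HCT116 is compared with MDAMB231, CA9 and CA12 where it is compared with COLO205, and BNIP3 and LOX where COLO205 is compared with MDAMB231. PDK1 (-0.81 ± 0.11, adjusted p = 9.04e-05), HK2 (-0.59 ± 0.06, adjusted p = 6.02e-06), BNIP3 (-0.58 ± 0.10) and ANKRD37 (-0.54 ± 0.16, adjusted p = 0.0392) had the most negative differences between MDAMB231 and HCT116 among members expressed in both, and EPAS1 was the single positive one (0.53 ± 0.07, adjusted p = 0.000105). For HIF1A the difference was -0.42 ± 0.08 against either colorectal line (adjusted p = 0.00298 for HCT116 and 0.00126 for COLO205). PGK1 differed by -0.34 ± 0.05 from HCT116 and -0.29 ± 0.05 from COLO205, and LDHA by -0.33 ± 0.07 and -0.21 ± 0.07 (adjusted p = 0.00718 and 0.0489).

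Between MDAMB231 and COLO205 the widest positive differences were CA12 (0.95 ± 0.10), SLC2A1 (0.80 ± 0.10), EPAS1 (0.57 ± 0.07), VEGFA (0.44 ± 0.14, adjusted p = 0.0345) and PFKM (0.23 ± 0.05). The widest negative ones among members expressed in both were EGLN3 (-0.75 ± 0.08), ENO2 (-0.74 ± 0.06, adjusted p = 6.12e-08), ANKRD37 (-0.65 ± 0.16) and HK2 (-0.60 ± 0.06). For CA9, which fell in both lines, the difference was 0 ± 0.09 (adjusted p = 1). The log2(FPKM + 1) scale understates changes of low genes, and CA9 was lower in MDAMB231 than in COLO205. Equal falls are therefore not read from this value. SLC2A1 also differed between COLO205 and HCT116 (-0.86 ± 0.10, adjusted p = 7.54e-06), next to SLC16A3 (-0.67 ± 0.16) and VEGFA (-0.47 ± 0.14). ADM (0.78 ± 0.18), EGLN3 (0.53 ± 0.08), NDRG1 (0.52 ± 0.11), ENO2 (0.33 ± 0.06) and BNIP3L (0.28 ± 0.08) had the positive differences there. HIF1A (0 ± 0.08), EPAS1 (-0.04 ± 0.07), HK2 (0 ± 0.06), PGK1 (-0.05 ± 0.05) and LDHA (-0.12 ± 0.07) showed none that passed.

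HK2 and PFKL were called lower in all 3 lines, and no member was called higher in all 3. For PFKL none of the 3 differences between lines passed the test (adjusted p from 0.787 to 1). EGLN3, NDRG1, BNIP3L and ENO2 were called higher in COLO205 and lower in MDAMB231, and EPAS1 the reverse, and all 5 differences between those lines were called. A set of 11 members was called lower in MDAMB231 and in neither colorectal line: HIF1A, EGLN1, ANKRD37, LOX, BNIP3, PFKP, PFKFB4, ALDOA, TPI1, PGK1 and LDHA. LOX was under 1 FPKM in both colorectal lines, and BNIP3 and PFKFB4 in COLO205, so that a fall could not be read there. For ALDOA, TPI1 and PFKFB4 the differences from HCT116 and COLO205 did not pass the test (adjusted p from 0.068 to 0.379). VHL, SLC2A3, GPI, ALDOC and GAPDH were called in no line at 16 h. These patterns across lines were not counted over all genes, so they are not read as particular to the members.

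After 3.5 h of ML-792 in HCT116 without heat shock 1 of 37 members tested was called, a fall, where 0.189% of all 12191 genes fell and 1.02% rose. The unadjusted p was under 0.05 for 6 members in limma. ADM was at 17.4, 18.1 and 18.3 FPKM with DMSO and 13.0, 13.6 and 13.9 with ML-792 (-0.38 ± 0.08, adjusted p = 0.0277). The groups were separate, but the call was lost when any of the 6 libraries was left out. SLC2A3 (0.35 ± 0.08, adjusted p = 0.0599), SLC2A1 (0.29 ± 0.07, adjusted p = 0.0783) and KDM3A (0.26 ± 0.06, adjusted p = 0.0514) did not pass, although every treated library exceeded every vehicle library, for example SLC2A1 at 129, 118 and 121 FPKM against 154, 150 and 147. HIF1A (-0.18 ± 0.07, adjusted p = 0.54), EPAS1 (-0.10 ± 0.07), HK2 (-0.08 ± 0.07), LDHA (0.03 ± 0.06), PGK1 (0.01 ± 0.07) and VEGFA (0 ± 0.08, adjusted p = 1) did not pass.

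CA9 and LOX fell under the filter of 1 FPKM in 3 libraries in this experiment and were not tested. CA9 was at most 0.088 FPKM and LOX at most 0.302 FPKM in its 12 libraries. No member's ML-792 effect differed between 16 h and 3.5 h in HCT116, where 2.4% of all genes differed (limma, with 6 members at an unadjusted p under 0.05). Without ML-792 library 1 of 16 h that count was 4, and without DMSO library 1 of either time it was 1. KDM3A, for example, had a difference of 0.13 ± 0.07 (adjusted p = 0.377). SLC2A1 in vehicle averaged 47.9 FPKM at 16 h and 123 FPKM at 3.5 h, but times and library identifier ranges cannot be told apart.

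Heat shock changed members in both directions in vehicle-treated HCT116, in shares near those of all genes as deposited. Of 37 members tested 12 rose (32.4%) and 7 fell (18.9%), where 28.9% of all genes rose and 20.6% fell. The split depended on scaling, from 7 higher and 8 lower when scaled by median of ratios to 6 higher and 21 lower with equal library totals. These totals were summed over genes outside the mitochondrial genome. The median of all genes moved from 0.05 as deposited to -0.19 with equal totals, and the higher share of all called genes went from 58.4% to 18.7%. EGLN3, VEGFA, NDRG1, ANKRD37, ALDOC and PGK1 rose under all 3 scalings. VHL, EGLN1, ADM, BNIP3L, SLC2A1, HK2 and SLC16A3 fell under all 3. The rises of KDM3A, GPI, TPI1, ENO1 and GYS1 turned to values from -0.08 to -0.03 with equal totals, none called, and that of ENO2 to 0.07.

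ANKRD37 was at 0.947, 0.831 and 0.934 FPKM without and 3.29, 3.15 and 3.67 with heat shock (1.20 ± 0.09, adjusted p = 3.19e-07). Of the DMSO libraries of 3.5 h, only the heat-shocked ones reached the filter of 1 FPKM for this gene. Its call, which the count of rises above includes, is therefore not read as support for a rise of the members. NDRG1 went from 17.6, 15.4 and 16.0 FPKM to 24.6, 24.6 and 26.1 (0.59 ± 0.06, adjusted p = 3.78e-06). EGLN3 went from 1.14, 1.30 and 1.27 FPKM to 2.15, 2.47 and 2.42 (0.58 ± 0.07, adjusted p = 1.89e-05). These 3 HIF target genes were higher in every shocked library than in any unshocked one. VEGFA went from 11.7, 12.7 and 12.4 FPKM to 16.9, 19.5 and 20.2 (0.58 ± 0.08, adjusted p = 6.9e-05). PGK1 went from 248, 257 and 264 FPKM to 342, 339 and 380 (0.46 ± 0.07, adjusted p = 0.00012). Neither overlapped.

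ADM fell from 17.4, 18.1 and 18.3 FPKM to 8.64, 8.85 and 10.1 (-0.90 ± 0.08, adjusted p = 1.06e-06), although it too is a HIF target. VHL went from 16.8, 17.1 and 17.4 FPKM to 12.2, 12.1 and 12 (-0.47 ± 0.06, adjusted p = 2.81e-05). SLC2A1 went from 129, 118 and 121 FPKM to 88.8, 85.4 and 94.5 (-0.45 ± 0.07, adjusted p = 0.000182). All 3 genes were separate between conditions. EGLN1 went from 17.1, 17.8 and 17.7 FPKM to 11.7, 13.7 and 12.9 (-0.43 ± 0.09, adjusted p = 0.00171). HK2 went from 18.3, 18.4 and 18.3 FPKM to 14.0, 13.9 and 13.3 (-0.39 ± 0.07, adjusted p = 0.000775). By role, 1 of 6 oxygen-sensing genes rose and 2 fell, 4 of 8 effectors tested rose and 2 fell, and 1 of 5 uptake genes rose and 2 fell. Of the aldolase to enolase enzymes 5 of 8 rose and 0 fell, and 0 of 5 phosphofructokinase genes were called. Of 3 lactate and pyruvate genes 0 rose and 1 fell, and of 2 glycogen genes 1 rose and 0 fell. Beside these stand 28.9% higher and 20.6% lower of all genes. The role counts are in the deposited scaling, on which the split of calls depends. HIF1A (-0.15 ± 0.07, adjusted p = 0.101), LDHA (0.05 ± 0.06) and EPAS1 (0.07 ± 0.07) did not pass as deposited. HIF1A was called lower under both other scalings (-0.24 by median of ratios, adjusted p = 0.0296, and -0.42 with equal totals, adjusted p = 0.00541), and LDHA with equal totals (-0.22, adjusted p = 0.000439). Heat shock and the library identifier range cannot be told apart in these comparisons. Genes of the mitochondrial genome took 11.6% ± 0.115 of summed FPKM without and 9.44% ± 0.418 with heat shock in DMSO (SD, n = 3). The equal totals leave these genes out of the sum, and their part in the results was not tested further.

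**Figure D4:**
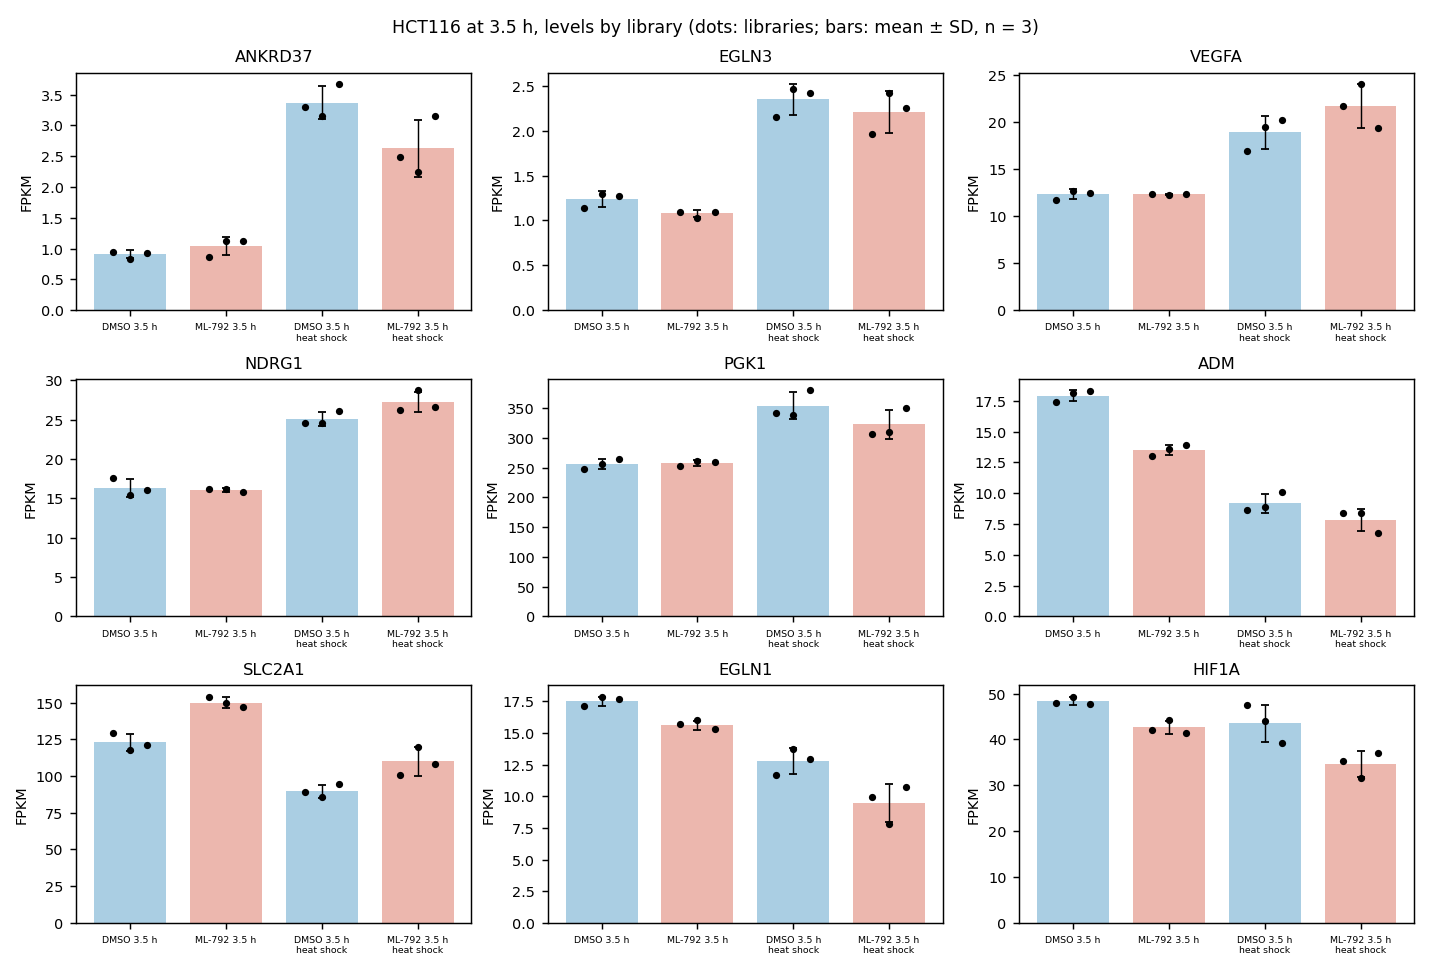
Levels of 9 members in the 12 HCT116 libraries of 3.5 h (FPKM; dots are libraries, bars the mean, error bars the SD, n = 3). ANKRD37, EGLN3, VEGFA, NDRG1 and PGK1 are higher in all heat-shocked libraries, and ADM, SLC2A1 and EGLN1 are lower with heat shock within each treatment.

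**Figure D5:**
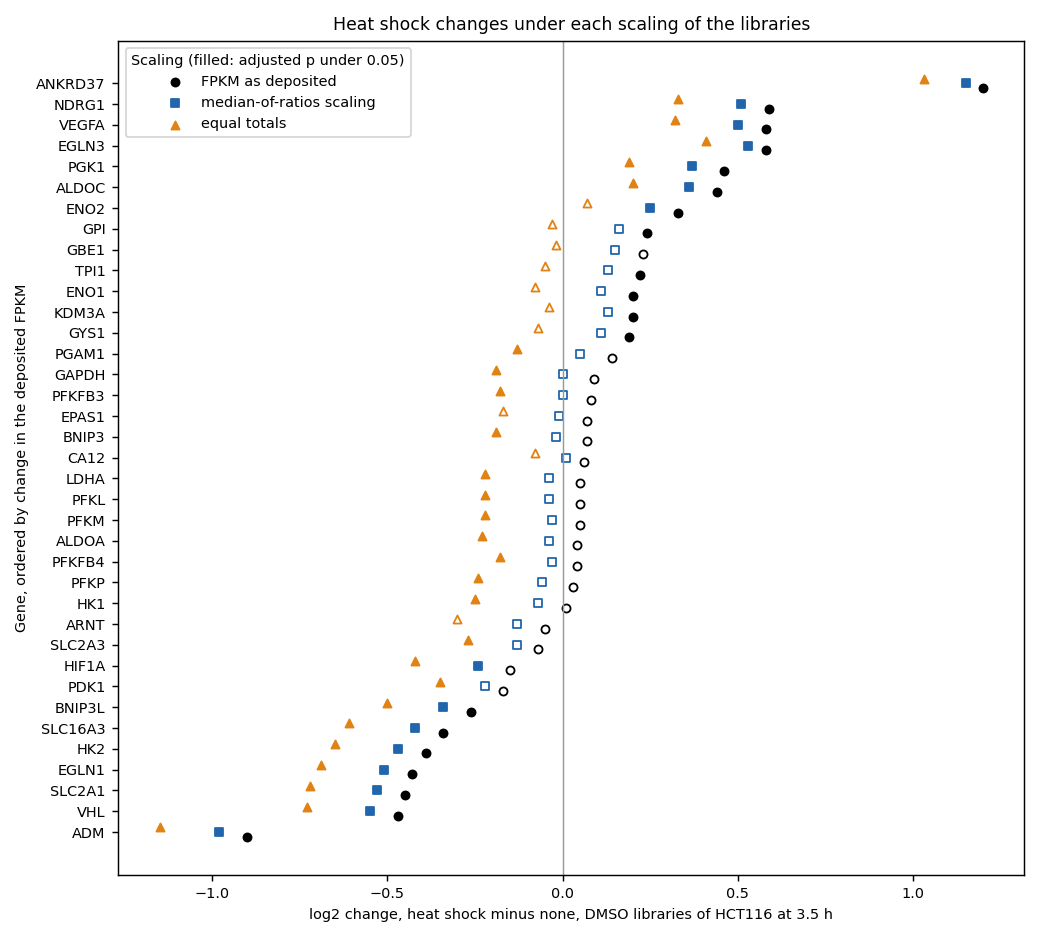
Change of the 37 tested members with heat shock in DMSO-treated HCT116 (log2, heat shock minus none) under the deposited FPKM, median-of-ratios scaling and equal library totals. The totals leave out genes of the mitochondrial genome. Filled symbols have adjusted p under 0.05. Equal totals shift all members to the left, so that 6 stay called higher and 21 are called lower, while ANKRD37 and ADM stay at the ends.

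With ML-792 present, heat shock raised 19 of 37 members (51.4%) and lowered 9 (24.3%), where 39.3% of all genes rose and 22.3% fell. The split was 10 to 12 by median of ratios and 6 to 18 with equal totals, and the all-gene median went from 0.10 to -0.18 with equal totals. The leading rises were ANKRD37 (0.83 ± 0.09), VEGFA (0.77 ± 0.08), NDRG1 (0.72 ± 0.06), ALDOC (0.66 ± 0.08) and EGLN3 (0.63 ± 0.07), with adjusted p from 1.71e-05 to 5.41e-07. The leading falls were ADM (-0.72 ± 0.08), EGLN1 (-0.68 ± 0.09), VHL (-0.51 ± 0.06), BNIP3L (-0.48 ± 0.06) and SLC2A1 (-0.45 ± 0.07), with adjusted p from 7e-06 to 0.000135. VEGFA, for example, was at 12.3, 12.2 and 12.3 FPKM without and 21.7, 24.0 and 19.4 with heat shock, without overlap. HIF1A fell (-0.29 ± 0.07, adjusted p = 0.00378), and EPAS1 rose (0.34 ± 0.07, adjusted p = 0.00162) but was at 0.05 and not called with equal totals. PGK1 rose by 0.32 ± 0.07 as deposited and was at -0.01 with equal totals. The rises of HK1, GPI, PFKL, PFKM, PFKP, PFKFB3, PFKFB4, GAPDH and ENO1 likewise turned to values from -0.17 to -0.01 with equal totals, and PFKM and GAPDH were then called lower. Of the calls as deposited, 11 rises and 7 falls were shared with heat shock in DMSO, and 0 members were called in opposite directions. Shared calls were not counted over all genes, so this overlap is not read as particular to the members. The heat shock effect itself differed with ML-792 for no member (0 of 37 in limma, 6.41% of all genes, with 9 members at an unadjusted p under 0.05). Without ML-792 heat shock library 3 that count was 6, and it was 2 without ML-792 heat shock library 1 or DMSO heat shock library 3.

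In heat-shocked cells ML-792 against DMSO gave 5 members higher and 5 lower (13.5% each of 37 tested), where 18.4% of all genes were higher and 15.1% lower. Median-of-ratios scaling made the split 3 to 8, and equal totals made it 2 to 7, and the higher share of all called genes was 54.9% as deposited, 31.8% by median of ratios and 35.6% with equal totals. EGLN1 was at 11.7, 13.7 and 12.9 FPKM with DMSO and 9.96, 7.79 and 10.7 with ML-792 (-0.40 ± 0.09, adjusted p = 0.00789). HIF1A was at 47.4, 44.0 and 39.3 FPKM and then at 35.3, 31.5 and 37.1 (-0.32 ± 0.07, adjusted p = 0.00791). The groups of both were separate, although the treated EGLN1 libraries spread widely. GBE1 (-0.32 ± 0.09), ANKRD37 (-0.27 ± 0.09, adjusted p = 0.0353) and BNIP3L (-0.24 ± 0.06) also fell. SLC2A1 was at 88.8, 85.4 and 94.5 FPKM and then at 101, 120 and 108 (0.29 ± 0.07, adjusted p = 0.0102), again without overlap. SLC16A3 (0.29 ± 0.07), HK1 (0.20 ± 0.05), PFKP (0.17 ± 0.06) and GYS1 (0.15 ± 0.05, adjusted p = 0.0395) also rose. The calls of ANKRD37, PFKP and GYS1 were lost in 5, 4 and 3 of the 6 leave-one-out fits.

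EPAS1 (0.17 ± 0.07, adjusted p = 0.0854), VEGFA (0.19 ± 0.08, adjusted p = 0.0771), HK2 (0.04 ± 0.07), LDHA (-0.04 ± 0.06) and PGK1 (-0.13 ± 0.07, adjusted p = 0.139) did not pass. These calls rest on the spread shared with the unshocked libraries: fitted on the heat-shocked libraries alone, 0 members were called. Without DMSO heat shock library 2 the count was 3, and without DMSO heat shock library 3 it was 17. The median SD between replicates over genes (log2) was 0.0985 and 0.118 in the shocked DMSO and ML-792 groups and 0.0427 and 0.0452 in the unshocked ones.

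Genes of the same pathways outside the 39 were counted from 5 lists. With ML-792 at 16 h in MDAMB231, 8.48% of all genes were lower and 8.38% higher. Further hypoxia-induced genes had 13 of 37 tested lower (35.1%) and 8 higher (21.6%), with a median of -0.09. PGF, a placental growth factor (1.55 to 5.23 FPKM, 1.29 ± 0.06), and ANGPTL4, a secreted lipase inhibitor (3.40 to 7.28 FPKM, 0.91 ± 0.08), rose against the prevailing direction of the members. Further glycolysis and pyruvate genes had 4 higher and 4 lower of 25, with PDK4, a relative of PDK1, higher (1.04 to 2.97 FPKM, 0.96 ± 0.07). Further HIF regulators had 3 of 19 lower and none higher. Of the 19 genes of the tricarboxylic acid cycle and pyruvate dehydrogenase and the 7 of the pentose phosphate pathway 0 were called in limma (2 and 0 at an unadjusted p under 0.05), with medians of 0 and 0.01.

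In COLO205, where 19.4% of all genes were higher and 17.7% lower, the same lists gave 10 higher and 7 lower of 37 hypoxia-induced genes, 6 and 5 of 25 glycolysis and pyruvate genes, and 4 and 3 of 19 regulators, shares near or little above that background. DDIT4, an inhibitor of growth signalling induced by stress, went from 298 to 89.7 FPKM (-1.73 ± 0.11), and PDK4 from 0.335 to 4 FPKM (1.90 ± 0.07). The cycle and pentose lists had 3 higher and 2 lower of 19 and 1 and 2 of 7. In HCT116 at 16 h, beside 8.32% higher and 6.42% lower of all genes, the counts were 8 higher and 3 lower of 37, 1 and 1 of 25, and 0 and 1 of 19. HMOX1, the haem-degrading enzyme, went from 14.4 to 7.35 FPKM there (-0.88 ± 0.06) and IGFBP3 from 0.746 to 2.54 FPKM (1.02 ± 0.06). Heat shock in DMSO raised 15 and lowered 6 of 32 hypoxia-induced genes tested, beside 28.9% and 20.6% of all genes, in the deposited scaling on which the split of calls depends. MAFF was among those that rose (5.23 to 36.0 FPKM, 2.57 ± 0.10).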

How the data were processed

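RNA from biological triplicates was made into TruSeq stranded mRNA libraries, sequenced as paired 50-base reads, per the labels' protocols. The authors deposited FPKM per gene and library. DESeq2 1.10.1 is named in the submitters' processing notes with no role. Not given in the sources used here: aligner, genome build, annotation, and use of strand in counting. All 30 value columns were used.

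The test was limma 3.58.1 (R 4.3.3), with a robust eBayes step and a mean-variance trend. It ran on log2(FPKM + 1), which understates changes of low genes, after dropping genes that failed to reach 1 FPKM in 3 fitted libraries. There was 1 mean per group. One fit held 14251 genes in the 18 libraries of 16 h, one 12191 genes in the 12 libraries of 3.5 h, and one 12462 genes in the 12 unshocked HCT116 libraries of both times. The script was tested on simulated data. Relative depth came from ratios of values under 0.3 FPKM. Library numbers follow accession order and pair nothing.

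Full statistics go to the called members with the 5 largest rises and 5 largest falls of each comparison and, with ML-792, to HIF1A, EPAS1, CA9, VEGFA, SLC2A1, HK2, LDHA and PGK1. In each of the 5 other lists up to 2 called genes are named, and 1 gene is not reported here. Other members are given more briefly. The members and lists were chosen with earlier results of these data known. Alternatives were other pseudocounts, filters, scalings, variance models, thresholds, a fit of each comparison alone, removal of a GC and length trend, and leaving out each library.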

Additional observations from a re-analysis of the deposited data

Results flagged for a closer look

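The ML-792 effect at 16 h differed between lines, by the test of the difference itself (limma, adjusted p under 0.05 over all genes), for the members below, up to 5 with the largest differences in each direction. Each comparison shares libraries with the others. Values are differences of log2 changes.

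COLO205 minus HCT116 gave EGLN3 0.53, ADM 0.78, NDRG1 0.52, BNIP3L 0.28 and ENO2 0.33 on the positive side. On the negative side it gave CA9 -0.70, CA12 -0.86, VEGFA -0.47, SLC2A1 -0.86 and SLC16A3 -0.67. CA9 is nearly unexpressed in HCT116 and CA12 is under 1 FPKM there, so these differences largely restate the change in COLO205.

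MDAMB231 minus HCT116 gave EPAS1 0.53 on the positive side. On the negative side it gave CA9 -0.70, ANKRD37 -0.54, BNIP3 -0.58, HK2 -0.59 and PDK1 -0.81. The CA9 value restates the change in MDAMB231.

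MDAMB231 minus COLO205 gave EPAS1 0.57, CA12 0.95, VEGFA 0.44, SLC2A1 0.80 and PFKM 0.23 on the positive side. On the negative side it gave EGLN3 -0.75, ANKRD37 -0.65, BNIP3 -0.71, HK2 -0.60 and ENO2 -0.74. BNIP3 is nearly unexpressed in COLO205, so its difference restates the change in MDAMB231.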

How the results depend on the processing

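Over all alternatives the MDAMB231 count at 16 h stayed within 1.5 times the reported one, with 23 to 28 members called when single libraries were left out, and so did COLO205 with 18 to 22. In HCT116 at 16 h 4 members were called at adjusted p under 0.01, and 4 to 7 without single libraries. At 3.5 h the single call became 0 at adjusted p under 0.01, with no filter or without any library, 2 with a pseudocount of 5, with a filter at 5 FPKM or with median-of-ratios scaling, 5 with the GC and length trend removed and 7 when fitted alone. ML-792 with heat shock gave 2 at adjusted p under 0.01, 0 when fitted alone, 4 with the trend removed and 3 to 17 without single libraries. GYS1 there turned to -0.04 (adjusted p = 0.505) with the trend removed. Heat shock in ML-792 gave 17 with the trend removed, and the time difference gave 2 with it and 0 to 4 without single libraries. The heat shock interaction gave 0 to 6. The cause was not tested for any of these. Other called members that changed sign did so with equal totals in the heat shock comparisons, as given there, and PFKFB4 and GAPDH in heat shock with ML-792 also with the trend removed. No paired analysis was possible because no label carries a replicate number. The depth in reads is unknown, so genes near 0 FPKM (CA9 and LOX in HCT116, SLC2A3 and BNIP3 in COLO205) carry no readable change.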

Other observations

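HK2 made up 23.0% ± 0.304 of the summed HK1 and HK2 FPKM in MDAMB231 with DMSO and 14.9% ± 0.847 with ML-792, 49.2% ± 0.267 and 48.6% ± 1.12 in COLO205, and 25.1% ± 0.317 and 22.5% ± 0.65 in HCT116 at 16 h (SD, n = 3, not tested). In HCT116 at 3.5 h the HK2 share was 43.9% ± 0.0822 with DMSO and 36.8% ± 1.42 with DMSO and heat shock. The share of HIF1A in HIF1A and EPAS1 was 85.3% ± 0.917 in heat-shocked DMSO cells and ranged from 78.9% to 82.2% in heat-shocked ML-792 cells.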
